A study of Mus musculus with 24 samples.

Results

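Nicotinamide adenine dinucleotide (NAD) is the electron carrier of fuel oxidation and the substrate that sirtuins, PARP enzymes and NAD glycohydrolases consume. Heart muscle rebuilds it mainly by salvage from nicotinamide. NAMPT makes nicotinamide mononucleotide in the rate-limiting step, nicotinamide riboside kinases such as NMRK1 make the same intermediate from the riboside, and the adenylyl transferases NMNAT1 in the nucleus and NMNAT3 in mitochondria turn it into NAD. NADK phosphorylates NAD to NADP, and NNT, the proton-driven transhydrogenase of the inner mitochondrial membrane, passes electrons from NADH to NADP. SIRT1, mainly in the nucleus, and SIRT3, in mitochondria, are deacetylases that use NAD. In mouse liver and fibroblasts Nampt is a known target of the clock activators CLOCK and BMAL1, and SIRT1 in turn acts on clock proteins.

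Transcripts of this NAD gene set were described in hearts of wild-type male C57Bl/6 mice aged 8 weeks that lived in 12 h of light and 12 h of darkness. Hearts, labelled as myocardium, were taken at 3, 7 and 11 h of zeitgeber time (ZT, counted from lights-on), in the light, and at 15, 19 and 23 h, in the dark, with 4 arrays per time and 24 in all, and the labels name no treatment. The set was named as a list of 9 genes (Nampt, Nmnat1, Nmnat3, Nmrk1, Nadk, Sirt1, Sirt3, Cd38 and Nnt), and a member was measured where a probe set carried its symbol and no other. That held for 8 of the 9, each through 1 probe set, out of 22180 genes. Cd38, the main NAD glycohydrolase, was not analysed here. The strain label gives no substrain. As background, mice of the 6J substrain carry a deletion within Nnt and lack its protein. Replicates are called biological in the labels, which do not say whether each is a single animal.

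The deposited values are centred: each probe set has a median of 0 over the 24 arrays. They were read as log2 values, so every value given here is a log2 difference from that gene's own median, and folds rest on the base being 2. No expression level is kept. Members cannot be ranked by level, and the tissue label could not be checked against heart markers. Array SDs lay between 0.103 and 0.171, and ZT15 replicate 1, ZT23 replicate 4 and ZT07 replicate 4 stood apart with the highest SDs and the lowest array weights. Results that rest on them are also given without these 3 arrays. Each ZT was sampled on 1 cycle, which means that a 24-h rhythm is a daily pattern not seen to repeat, and effects of light, feeding and the clock cannot be told apart. Nor can time be told apart from any handling shared by the arrays of a time, since the labels give no batch. All 10 measured clock genes had a 24-h rhythm, from Arntl at ZT 0.329 through Nr1d1 at ZT 7.56 to Cry1 at ZT 18.3. In whole tissue, fewer cells of a type and less RNA per cell cannot be told apart either.

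The start regions of the 3 members with a 24-h rhythm and of Sirt1 (1 of 2 windows each for Nadk and Nmnat1) are shown because clock factors act through short DNA elements near start sites. RefSeq windows of 300 bases (250 before and 50 after an annotated start, GRCm38.p6) were at hand for 7 of the 8 measured members, 10 windows in all, and none for Nnt. Both strands were searched for the E-box bound by CLOCK and BMAL1 (CACGTG), the D-box (TTATGTAA) and the REV-ERB and ROR element (TAGGTCA), and no matches overlapped. An E-box lay in 2 of the 10 windows, 1 of the 2 windows of Nadk and the window of Sirt1, against 7.15% of all 32851 windows. The other elements (in 0.938% and 2.61% of all windows) were in none of the 10. Capitals mark the E-boxes, which begin 40 bases before the start in Nadk and 115 and 43 bases before it in Sirt1. A match is a run of letters, not a measured site, and its lack says nothing of sequence outside the window.
Nampt (chr12:32820085-32820384, plus strand): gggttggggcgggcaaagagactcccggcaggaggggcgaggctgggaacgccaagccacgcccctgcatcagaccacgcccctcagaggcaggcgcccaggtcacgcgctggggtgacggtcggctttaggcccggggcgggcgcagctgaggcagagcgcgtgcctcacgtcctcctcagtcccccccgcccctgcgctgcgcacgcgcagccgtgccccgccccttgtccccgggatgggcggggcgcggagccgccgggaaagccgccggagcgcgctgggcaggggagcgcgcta
Nadk (chr4:155563565-155563864, plus strand): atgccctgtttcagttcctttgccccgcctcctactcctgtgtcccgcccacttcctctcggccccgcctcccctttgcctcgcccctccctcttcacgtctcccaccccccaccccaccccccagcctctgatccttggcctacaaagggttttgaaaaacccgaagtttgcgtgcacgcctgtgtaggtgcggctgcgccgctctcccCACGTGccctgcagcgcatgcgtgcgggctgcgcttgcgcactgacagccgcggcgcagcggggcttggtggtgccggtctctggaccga
Nmnat1 (chr4:149485161-149485460, minus strand): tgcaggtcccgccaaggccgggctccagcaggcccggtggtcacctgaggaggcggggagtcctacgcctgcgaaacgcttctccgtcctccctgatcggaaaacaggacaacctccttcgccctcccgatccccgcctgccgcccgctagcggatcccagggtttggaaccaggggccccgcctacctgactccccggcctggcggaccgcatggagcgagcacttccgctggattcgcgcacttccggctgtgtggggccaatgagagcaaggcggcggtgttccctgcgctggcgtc
Sirt1 (chr10:63338986-63339285, minus strand): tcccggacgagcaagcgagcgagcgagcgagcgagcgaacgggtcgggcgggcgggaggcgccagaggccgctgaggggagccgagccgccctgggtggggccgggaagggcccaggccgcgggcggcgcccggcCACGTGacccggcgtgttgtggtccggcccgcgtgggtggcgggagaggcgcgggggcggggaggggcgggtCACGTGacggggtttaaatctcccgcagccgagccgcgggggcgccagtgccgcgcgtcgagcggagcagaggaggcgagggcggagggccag

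Nampt, Nadk and Nmnat1 had a 24-h rhythm, all with peaks in the dark, which is 3 of 8 measured members where 7.61% of all genes were called (limma's moderated test of a 24-h cosine, adjusted p below 0.05 over all genes). The share of all rhythmic genes that peaked in the dark is not given here, so nothing is read from the shared phase. The fitted peaks lay at ZT 14.6 for Nampt, ZT 17.5 for Nadk and ZT 20.3 for Nmnat1, and differences in peak time were not tested. Nampt and Nadk had their highest mean at the same time, ZT15, and their lowest at ZT03, and Nmnat1 had them at ZT19 and ZT07. The dark means of Nadk were 0.11 at ZT15, 0.048 at ZT19 and 0.066 at ZT23. Nmnat3, Nmrk1, Sirt1, Sirt3 and Nnt were not called, and without the 3 arrays that stood apart the count was 3 of 8. The call of Nmnat1 (adjusted p = 0.0465 in limma's test) was near the threshold and failed without any of 17 of the 24 arrays. With a term for replicate number in the fit it failed too (adjusted p = 0.0696). The median amplitude (peak minus mean, never below 0) of the 8 was 0.10 on the log2 scale, against 0.040 for all genes. A fitted amplitude also rises with a gene's spread, and all 8 members had an SD above that of the median gene (0.102). Nothing is therefore read from the difference between these medians. At an unadjusted p below 0.05 there were 5 of 8, with 19.5% of all genes. A test of any difference among the 6 times called 2 of 8, Nampt (adjusted p = 0.0188) and Nadk (adjusted p = 0.0111), where it called 4.72% of genes. Limma called a 12-h component in 0 of 8 members and 0% of all genes, and at an unadjusted p below 0.05 in 0 of 8 and 6.32%.

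**Figure D1:**
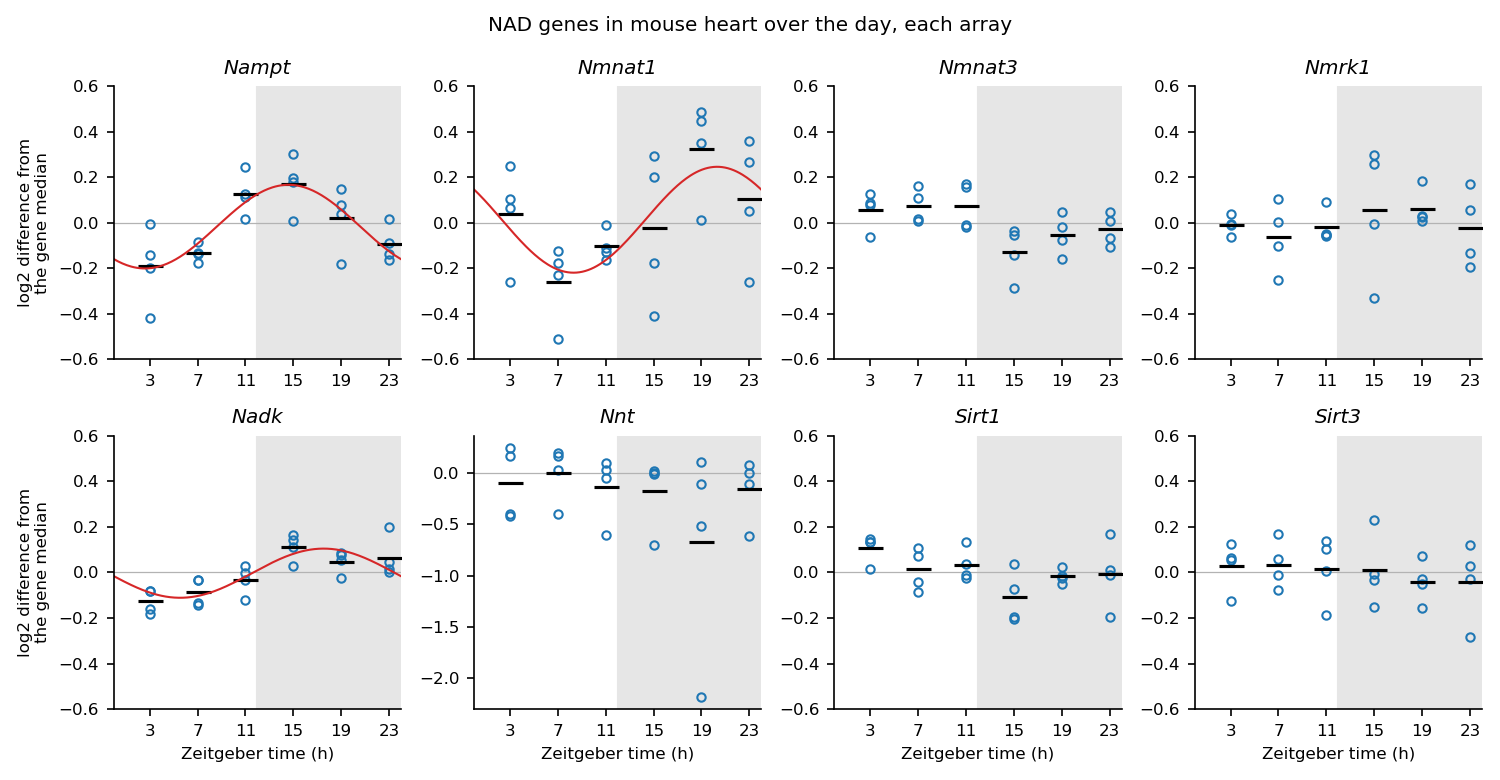
Values of the 8 measured members in each of the 24 arrays against zeitgeber time in hours, as log2 differences from each gene's median. Circles are arrays, bars are means of 4, grey marks the dark phase, red curves are fitted 24-h cosines of the 3 members called, and Nnt has a wider vertical scale. Nampt is high at ZT11 and ZT15, Nadk through the dark and Nmnat1 at ZT19, and Nnt falls to -2.18 in a single ZT19 array.

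Nampt (chromosome 12), the gate of the salvage route, was low early in the light and high around lights-off. Among light-phase arrays, ZT03 held -0.42, -0.14, -0.0080 and -0.20, ZT07 held -0.14, -0.084, -0.18 and -0.14, and ZT11 held 0.017, 0.25, 0.13 and 0.11. Among dark-phase arrays, ZT15 held 0.0080, 0.30, 0.18 and 0.19, ZT19 held 0.15, 0.079, 0.039 and -0.18, and ZT23 held 0.014, -0.14, -0.17 and -0.089. All 8 arrays of ZT11 and ZT15 were above 0 and all 8 of ZT03 and ZT07 below it, while ZT19 and ZT23 held values on either side. Means were -0.19 ± 0.17 (SD, n = 4) at ZT03 and 0.17 ± 0.12 at ZT15, and these groups did not overlap, as in 7.8% of all genes. ZT15 exceeded ZT03 by 0.36 ± 0.078 (SE), or 1.28-fold (adjusted p = 0.0101), in a comparison that called 2 of 8 members and 3.06% of all genes, with 1.36% called higher. The fitted amplitude was 0.18 ± 0.031 (SE, 24 arrays), a 1.29-fold change from trough to peak, and the peak fell at ZT 14.6 (SE 0.648 h, adjusted p = 0.00114).

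Nampt was called for dusk against dawn and not for night against day. ZT11 and ZT15 together exceeded ZT23 and ZT03 by 0.29 ± 0.055 (adjusted p = 0.00246, 8 arrays against 8), and Nampt was the only 1 of 8 members called there, with 3.76% of all genes. Night minus day was 0.099 ± 0.045 and was not called (adjusted p = 0.274). Between ZT23 and ZT11 the arrays of Nampt did not overlap, as in 7.73% of genes, and ZT23 minus ZT11 was -0.22 ± 0.078 (adjusted p = 0.172). Limma called 0 of 8 members there and 2.72% of genes, and at an unadjusted p below 0.05 it found 1, Nampt, and 13.6%. Against the clock genes measured on the same arrays, Nampt peaked 3.40 ± 0.760 h after Per1 (ZT 11.2) and 3.22 ± 0.691 h after Dbp (ZT 11.4), the repressor and the D-box factor that CLOCK and BMAL1 drive. The SEs of these lags combine the SEs of both peaks as if independent, although both genes were read on the same arrays. The 1.29-fold change of Nampt was below that of Per3 (3.55-fold) and Dbp (5.08-fold). The genes most like Nampt over the 24 arrays were Fkbp5 (Pearson r = 0.834), a chaperone of the glucocorticoid receptor, Mid1ip1 (r = 0.790), which promotes fatty acid synthesis, and Herpud1 (r = 0.788), of protein degradation at the endoplasmic reticulum. They were picked as the highest of all protein-coding genes, so no p is given, and their own peaks lay between ZT 14.1 and ZT 14.5. Of these, Mid1ip1 was the mean of 3 probe sets, with an amplitude of 0.18 against 0.42 for its probe set with the largest SD.

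Nadk (chromosome 4), the cytosolic kinase that makes NADP, was higher in the dark. Among light-phase arrays, ZT03 held -0.18, -0.16, -0.081 and -0.079, ZT07 held -0.13, -0.033, -0.14 and -0.035, and ZT11 held -0.12, 0.027, -0.032 and -0.0019. Among dark-phase arrays, ZT15 held 0.16, 0.028, 0.14 and 0.11, ZT19 held 0.075, 0.084, 0.054 and -0.023, and ZT23 held 0.014, 0.048, 0.0019 and 0.20. Of the 12 light arrays 11 were below 0, and of the 12 dark arrays 11 were above it, the exceptions being ZT11 replicate 2 and ZT19 replicate 4. Night exceeded day by 0.16 ± 0.027 (SE, 12 arrays against 12), or 1.11-fold (adjusted p = 0.00124), in a comparison that called 2 of 8 members and 4.39% of all genes. Nadk was the 1 member called higher, with 1.89% of genes. The amplitude was 0.11 ± 0.021 (SE, 24 arrays), a 1.16-fold change that peaked at ZT 17.5 (SE 0.737 h, adjusted p = 0.00424).

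The change of Nadk was also called for ZT15 against ZT03 (0.24 ± 0.047, adjusted p = 0.00453), where the groups did not overlap, as in 7.8% of genes. They did not overlap between ZT19 and ZT07 either, as in 8% of genes, but that difference was not called (0.13 ± 0.047, adjusted p = 0.175). Nadk peaked at -0.753 ± 0.789 h relative to Cry1, the late clock repressor (ZT 18.3), and 6.33 ± 0.837 h after Per1. The SEs of these lags were combined as for Nampt, as if the peaks were independent. The genes most like Nadk were Cd9, a tetraspanin (r = 0.820 over 24 arrays), Rin3, a RAB5 regulator (r = 0.816), and the heat shock co-chaperone Dnajb1 (r = 0.812), again with no p. Of these, Cd9 was the mean of 2 probe sets, and 1 of them had no rhythm on its own (adjusted p = 0.359).

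Nmnat1 (chromosome 4), the nuclear enzyme that completes NAD, had the highest fitted amplitude of the 3. Among light-phase arrays, ZT03 held 0.25, 0.10, -0.26 and 0.066, ZT07 held -0.13, -0.18, -0.23 and -0.51, and ZT11 held -0.011, -0.11, -0.17 and -0.13. Among dark-phase arrays, ZT15 held -0.41, -0.18, 0.29 and 0.20, ZT19 held 0.011, 0.45, 0.49 and 0.35, and ZT23 held 0.27, 0.36, 0.050 and -0.26. All 8 arrays of ZT07 and ZT11 were below 0 and all 4 of ZT19 above it, whereas ZT03, ZT15 and ZT23 held values on either side. The amplitude was 0.23 ± 0.061 (SE, 24 arrays), a 1.38-fold change that peaked at ZT 20.3 (SE 1.00 h, adjusted p = 0.0465). ZT19 exceeded ZT07 by 0.58 ± 0.15 (adjusted p = 0.0496), and these groups did not overlap, as in 8% of all genes. Nmnat1 was the 1 of 8 members called in that comparison, with 1.59% of all genes called and 0.888% called higher. Night minus day was 0.24 ± 0.086 and was not called (adjusted p = 0.124).

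The rhythm call of Nmnat1 was lost when any of 17 of the 24 arrays was left out (adjusted p up to 0.105) and held without ZT03 replicate 1, ZT11 replicate 1, ZT15 replicate 1, ZT15 replicate 2, ZT19 replicate 1, ZT23 replicate 3 and ZT23 replicate 4. The 3 arrays that stood apart read -0.51, -0.41 and -0.26, each the lowest of its time. Without them the amplitude was 0.25 (adjusted p = 0.00522) and night minus day was 0.30 and called (adjusted p = 0.0207). The ZT19 against ZT07 difference was then 0.50 (adjusted p = 0.0569), and it also failed without any of 17 of the single arrays (adjusted p up to 0.174). Nmnat1 followed other genes closely over the arrays, with r = 0.923 for Slc25a12, the aspartate-glutamate carrier of the NADH shuttle, 0.921 for Mr1, which presents vitamin B metabolites to T cells, and 0.921 for the quinone reductase Nqo2. None of these 3 had a rhythm call of its own over all 24 arrays (adjusted p = 0.340, 0.0735 and 0.0580). Without the 3 arrays that stood apart, Mr1 (adjusted p = 0.0448) and Nqo2 (adjusted p = 0.00726) were called and Slc25a12 was not (adjusted p = 0.146). Mr1 and Nqo2 were also called under quantile normalization and with array weights.

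**Figure D2:**
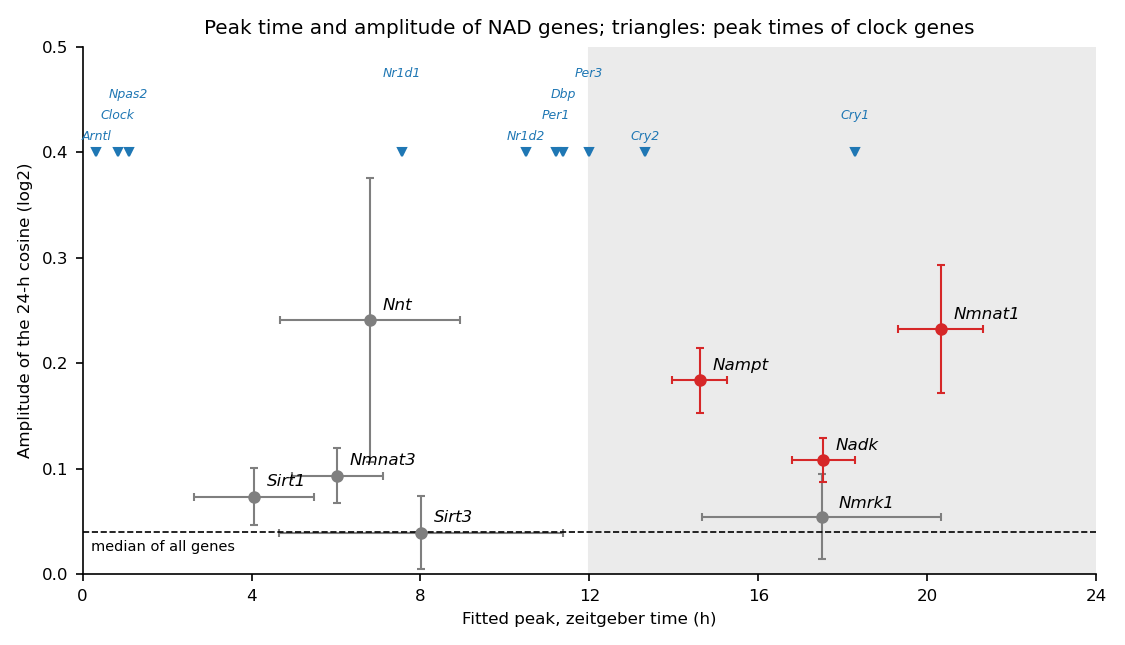
Fitted peak time in hours against the amplitude of the 24-h cosine (log2) for the 8 measured members, with SE bars in both directions. Red points are the 3 members called, the dashed line is the median amplitude of all genes (0.040), and blue triangles mark only the peak times of 10 clock genes. The called members lie in the dark, after Per1, Dbp and Per3, and 4 of the 5 others have fitted peaks in the light.

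Nmnat3 (chromosome 9) makes NAD in mitochondria, and it was lower at night. Its values in the light ranged from -0.064 to 0.17 (median 0.081, 12 arrays). In the dark they ranged from -0.29 to 0.048 (median -0.060), so the phases overlapped, with 9 of 12 light arrays above 0 and 9 of 12 dark arrays below. Night minus day was -0.14 ± 0.036 (SE), 1.10-fold lower at night (adjusted p = 0.0280), and Nmnat3 was the 1 member of 8 called lower, with 2.49% of genes. The 24-h cosine, with an amplitude of 0.093 and a peak at ZT 6.03, missed the threshold (adjusted p = 0.0682). The night call was lost without ZT03 replicate 3, ZT03 replicate 4, ZT07 replicate 4, ZT11 replicate 4, ZT19 replicate 2 or ZT23 replicate 3 (adjusted p up to 0.0560), and without the 3 arrays that stood apart (-0.11, adjusted p = 0.0978).

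Nmrk1 (chromosome 19), the riboside kinase, showed no call in any comparison. It ranged from -0.33 to 0.30 over the arrays, and both ends lay within ZT15. Its amplitude was 0.055 ± 0.041 (SE, 24 arrays, adjusted p = 0.740), and night minus day was 0.060 ± 0.061, with a 95% confidence interval from -0.066 to 0.19. Its lowest value was ZT15 replicate 1, 1 of the 3 arrays that stood apart. Without that array the amplitude of Nmrk1 was 0.086 and night minus day 0.10, and without all 3 they were 0.081 (adjusted p = 0.382) and 0.11 (adjusted p = 0.280, unadjusted p = 0.0450). Night minus day fell to 0.033 without ZT15 replicate 4, and to between that and 0.039 without ZT07 replicate 3, ZT15 replicate 3 or ZT23 replicate 2.

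Of the sirtuins, Sirt1 (chromosome 10) ranged from -0.20 to 0.17, with its highest mean at ZT03 (0.11 ± 0.062, SD, n = 4) and its lowest at ZT15 (-0.11 ± 0.11). ZT15 minus ZT03 was -0.22 ± 0.065 (SE), which missed the threshold (adjusted p = 0.0823) but passed it without ZT15 replicate 2, ZT23 replicate 1 or ZT23 replicate 3 (adjusted p = 0.0356 at the lowest). It was -0.19 without the 3 arrays that stood apart (adjusted p = 0.242), and the highest adjusted p on leaving out 1 array was 0.228, without ZT15 replicate 1. Neither its 24-h cosine (amplitude 0.073 ± 0.027, adjusted p = 0.232) nor night minus day (-0.095 ± 0.038, adjusted p = 0.177) was called. Sirt3 (chromosome 7) ranged from -0.28 to 0.23, and its 6 time means lay between -0.041 and 0.035 with SDs within a time of 0.093 to 0.17. Its amplitude was 0.039 ± 0.035 (SE, 24 arrays, adjusted p = 0.813).

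Nnt (chromosome 13) varied more than any other member between arrays, including arrays of the same time, and no time of day comparison called it. Among light-phase arrays, ZT03 held -0.42, -0.39, 0.17 and 0.24, ZT07 held 0.20, 0.16, -0.39 and 0.029, and ZT11 held -0.051, -0.60, 0.10 and 0.028. Among dark-phase arrays, ZT15 held -0.71, 0.024, 0.0041 and -0.0041, ZT19 held -0.11, -2.18, -0.52 and 0.11, and ZT23 held 0.0054, -0.61, 0.079 and -0.11. The arrays fell into 3 ranges with gaps between them: 16 read between -0.11 and 0.24, 7 between -0.71 and -0.39, and ZT19 replicate 2 read -2.18, 4.54-fold below the median and the lowest value of the whole table. The 8 low arrays were spread over all 6 times, 2 each at ZT03 and ZT19 and 1 at each of the others, 4 in the light and 4 in the dark. The SD over all arrays was 0.508, higher than that of 99.8% of genes, and still 0.291 without ZT19 replicate 2.

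The 24-h amplitude of Nnt was 0.24 ± 0.13 (SE, 24 arrays, adjusted p = 0.559) and dropped to 0.076 without ZT19 replicate 2. Night minus day was -0.26 ± 0.19, with a 95% confidence interval from -0.66 to 0.15, and was -0.089 without that array. The measured protein-coding genes next to Nnt on chromosome 13 varied less. Fgf10 and Mrps30 on the side of lower coordinates had SDs of 0.0484 and 0.140, and Paip1 and 4833420G17Rik on the other side 0.109 and 0.101. In ZT19 replicate 2 these 4 genes read between -0.19 and 0.024. Of the arrays that stood apart, ZT15 replicate 1 was among the 8 low ones, and ZT23 replicate 4 (-0.11) and ZT07 replicate 4 (0.029) were not. The cause of the gaps was not tested.

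**Figure D3:**
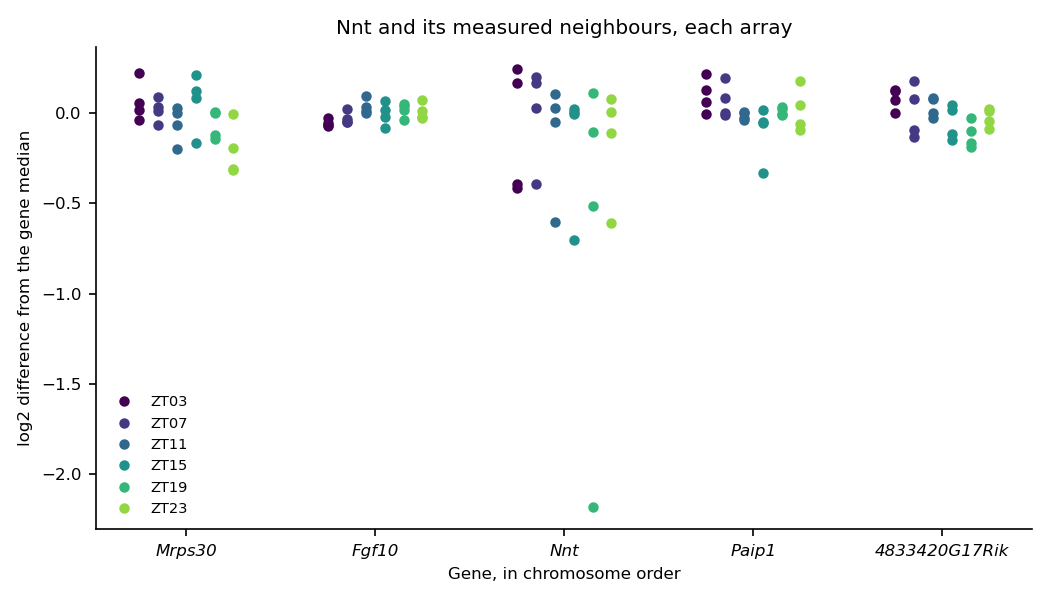
Values of Nnt and of the 2 nearest measured protein-coding genes on each side of it, in chromosome order, as log2 differences from each gene's median. Each point is 1 of the 24 arrays, coloured by time. Nnt falls into 3 ranges with ZT19 replicate 2 at -2.18, and none of its neighbours goes below -0.33.

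Whether Nampt differed from the other members in its daily course was tested as the rhythm of Nampt minus another member on the same array (permutation test over the 24 arrays with 100000 resamples, 7 pairs, Benjamini-Hochberg adjusted over the pairs). All 7 differences passed. By permutation, the smallest p-values were those against Sirt1 (amplitude of the difference 0.25, p = 1e-05, the smallest the resamples can give, adjusted p = 7.00e-05) and Nmnat3 (0.25, p = 2.00e-05, adjusted p = 7.00e-05), which had their fitted peaks in the light. Nampt also differed from the other 2 rhythmic members in this permutation test, from Nadk by 0.13 (p = 0.00316, adjusted p = 0.00553) and from Nmnat1 by 0.29 (p = 0.00615, adjusted p = 0.00861). Against Sirt3 the difference was 0.19 (permutation p = 0.00283, adjusted p = 0.00553) and against Nmrk1 0.15 (permutation p = 0.0129, adjusted p = 0.0151). Its difference from Nnt (p = 0.0353, adjusted p = 0.0353 by permutation) was lost without any of 8 single arrays, namely ZT03 replicates 3 and 4, ZT07 replicates 1, 2 and 4, ZT15 replicate 1 and ZT19 replicates 2 and 3 (adjusted p up to 0.0748), and without the 3 arrays that stood apart (adjusted p = 0.111). These tests find a difference in amplitude, in peak time or in both, and do not say which. Nampt, the member with the smallest rhythm p, was in every pair. Its own rhythm enters each difference, so a pass against a member without a rhythm call can restate the call of Nampt. Pairs without Nampt were not tested.

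Around the members, 53 further genes of NAD metabolism were measured, and 6 had a 24-h rhythm: Pnp, Aox1, Sirt2, Parp1, Parp2 and Idh1, with 3 peaks in the dark and 3 in the light. That count and those of the gene groups stand beside 7.61% of all genes called for a rhythm, and nothing is read from them about the pathway. The median amplitude of the 53 was 0.048. In nicotinamide handling, Pnp, which frees nicotinamide from its riboside, peaked at night (1.24-fold, ZT 17.4, adjusted p = 0.0205), and Aox1, an oxidase of nicotinamide's methylated product, peaked late in the light (1.41-fold, ZT 10.9, adjusted p = 0.000147). Of 11 measured genes of salvage and nicotinamide handling 4 were called, counting Nampt and Nmnat1. Nmrk2, the muscle riboside kinase, was not called (amplitude 0.049, adjusted p = 0.747). Limma called 0 of 11 genes of the routes from nicotinic acid and tryptophan, at a median amplitude of 0.026, with 0 of 11 at an unadjusted p below 0.05, against 19.5% of all genes.

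Among users of NAD, the cytosolic deacetylase Sirt2 was the only 1 of 7 sirtuins called for a rhythm (1.29-fold, ZT 18.6, adjusted p = 0.0248), and the call was lost without ZT07 replicate 1, ZT07 replicate 3, ZT07 replicate 4 or ZT19 replicate 4 (adjusted p up to 0.0615). Its difference from the other sirtuins was not tested. The DNA repair enzymes Parp1 (1.18-fold, ZT 7.94, adjusted p = 0.0244) and Parp2 (1.20-fold, ZT 5.44, adjusted p = 0.0252) peaked in the light and were lower at night, with night minus day differences of -0.18 ± 0.037 (SE, adjusted p = 0.00528) and -0.18 ± 0.045 (adjusted p = 0.0247) on the log2 scale. The rhythm call was lost for Parp1 without ZT19 replicate 3 and for Parp2 without ZT07 replicate 2 or ZT19 replicate 2 (adjusted p up to 0.0589). Over the 10 measured PARPs and glycohydrolases 2 were called lower at night and 0 higher, where 2.49% of all genes were called lower and 1.89% higher, and the median night minus day difference was -0.079, against 0.0021 over all genes. Pnp (0.17, adjusted p = 0.0448) and Sirt2 (0.22, adjusted p = 0.0442) were called higher at night, and Aox1 (-0.20, adjusted p = 0.0147) and Mthfd1, a folate enzyme that makes NADPH (-0.15, adjusted p = 0.0411), lower. The night calls of Pnp, Sirt2 and Mthfd1 each failed without any of 16 or 17 of the 24 arrays (adjusted p up to 0.0839), and those of Aox1 and Mthfd1 without the 3 arrays that stood apart (adjusted p = 0.0510 and 0.0527).

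**Figure D4:**
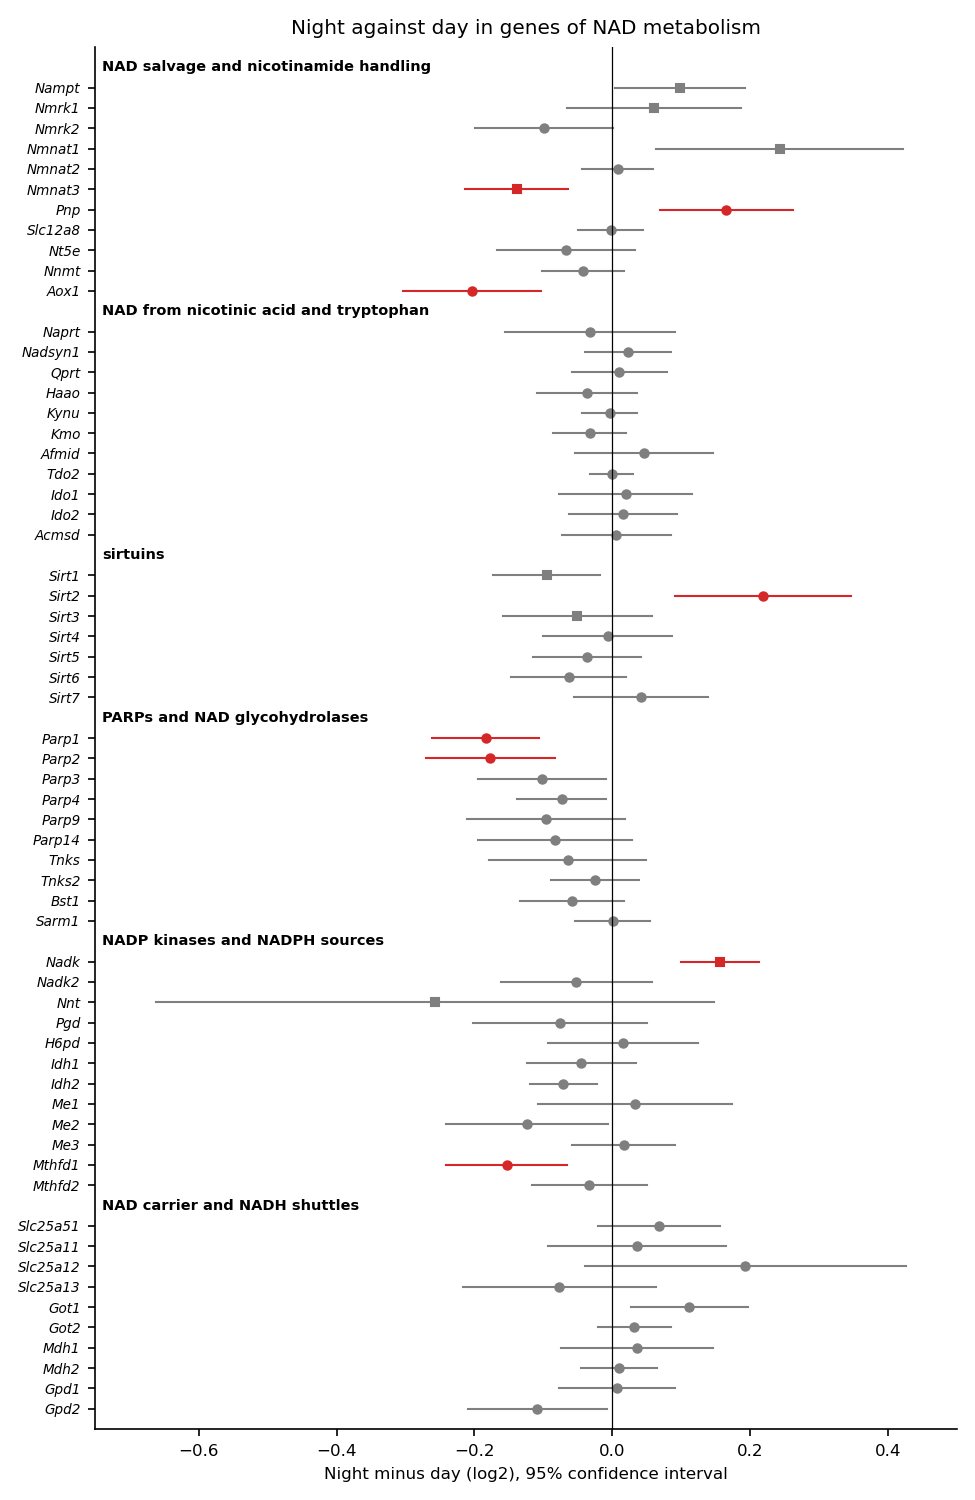
Night minus day differences (log2, 12 dark against 12 light arrays) with 95% confidence intervals for the 61 measured genes of NAD metabolism, grouped by role. Squares are the 8 members and circles the other genes, and red marks an adjusted p below 0.05 over all genes. Nadk, Pnp and Sirt2 lie above 0, Nmnat3, Aox1, Parp1, Parp2 and Mthfd1 below it, and the interval of Nnt is the widest.

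Macrophage and platelet markers also had rhythms with peaks in the dark. Over all genes, 7.61% were called for a rhythm and 1.89% higher at night. The share of all rhythmic genes with peaks in the dark is not given here, so the counts of dark peaks are description only. Of 12 macrophage markers 9 had a 24-h rhythm, 8 of them with peaks in the dark, and 5 were called higher at night. The mean of the 12 was -0.17 ± 0.11 (SD, n = 4) at ZT07 and 0.13 ± 0.078 at ZT15. Of 7 platelet markers 5 had a rhythm, all with peaks in the dark, with a mean of -0.14 ± 0.057 at ZT07 and 0.42 ± 0.22 at ZT23. Single arrays lay between -0.32 and 0.23 for the first list and between -0.20 and 0.92 for the second. Of 10 endothelial markers 2 were called for a rhythm, of 10 fibroblast markers 4, of 10 ventricular cardiomyocyte markers 2 and of 7 measured adipocyte markers 1. Limma called 0 of 8 atrial, 8 neutrophil, 8 lymphocyte, 8 smooth muscle and pericyte and 8 skeletal muscle markers, and 0 of 2 measured red cell markers. The atrial markers, though not called, had a median amplitude of 0.14, and their mean was lowest at ZT07 (-0.080 ± 0.047) and ZT11 (-0.061 ± 0.10) and highest at ZT19 (0.14 ± 0.27), with single arrays from -0.19 to 0.50. The means of Nmnat1 were lowest and highest at the same times (-0.26 ± 0.17, -0.10 ± 0.066 and 0.32 ± 0.22). The mean of the ventricular cardiomyocyte markers was highest at ZT07 (0.057 ± 0.033) and lowest at ZT23 (-0.062 ± 0.018). Of these 10 markers 2 were called lower at night and 0 higher, where 2.49% of all genes were called lower. The part of these cell types in the dark-phase values of Nampt, Nadk, Nmnat1, Pnp and Sirt2 was not tested. Nor was their part in the lower night values of Nmnat3, Aox1, Parp1, Parp2 and Mthfd1.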

How the data were processed

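Per the labels, total RNA from heart was made into biotin-labelled cRNA and read on 24 Affymetrix mouse gene arrays. The deposited log2 values hold 34351 probe sets, each with its median over the 24 arrays at 0 within 5e-07. Base 2 is assumed. How the authors summarised, background-corrected and normalized the arrays is not stated in the sources at hand. No filter on dim genes was possible with centred values. Probe sets with 1 symbol in the platform annotation (23521) were averaged to 22180 genes. Symbols and coordinates were taken from RefSeq (GRCm38.p6). Samples were grouped by the time in their labels.

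Limma 3.58.1 in R 4.3.3 was fitted on all genes and arrays, and p-values were adjusted over the 22180 genes (Benjamini-Hochberg, threshold 0.05). The terms were a 24-h cosine and sine, a 12-h component beside them, a moderated F over the 6 times, and contrasts from the 6-group fit with 18 residual degrees of freedom. The fit was tested on simulated data. Members, lists and tests were chosen with earlier results of these data known. All members are named, other genes where called for rhythm or night against day, and the 3 protein-coding genes most like each rhythmic member. Alternatives were other handling of probe sets, array centring, quantile normalization, array weights, left-out arrays, a replicate block, a robust prior and protein-coding genes only.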

Additional observations from a re-analysis of the deposited data

Results flagged for a closer look

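Of the 48 sets of 4 arrays formed by 8 members and 6 times, 4 held an array whose gap to the nearest other was large for the range of its set, and chance flags about 1 in 20 sets. Nnt read -0.705 in ZT15 replicate 1, while the other 3 arrays of that time lay at -0.0041 or above. Sirt1 read 0.0134 in ZT03 replicate 2, with the next array at 0.132. Nmrk1 read 0.0892 in ZT11 replicate 3, with the next at -0.0487, and 0.181 in ZT19 replicate 2, with the next at 0.0272. The lowest value of Nnt, in ZT19 replicate 2, was not among them because that time also held another low array.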

How the results depend on the processing

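Over the settings that kept all arrays or left out 3, 596 of 618 single-gene or pair values kept their side of the threshold. Another 12 lost a call and 10 gained it. Nothing is read from their direction, since many of these values could not turn it. The replicate block, the robust prior and the use of protein-coding genes only changed p-values and not estimates. Each member had 1 probe set, so other handling of probe sets left its estimates unchanged too. Tests of any difference among the times have no direction. The count of members called for ZT19 against ZT07 was 1, and it was 0 with each probe set on its own, without the 3 arrays of lowest weight, with the replicate block and with a robust prior. The gene concerned was Nmnat1 (adjusted p = 0.0496). Nmnat3 gained a rhythm call under quantile normalization (adjusted p = 0.0486) and without ZT03 replicate 1 or ZT19 replicate 4. Nmnat1 gained a night against day call under quantile normalization (adjusted p = 0.0477) and with array weights (adjusted p = 0.0398). The count of all genes with a 12-h component was 0, and 4, 4 and 5 after array centring, with array weights and with protein-coding genes only. The cause of these shifts was not tested.

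When single arrays were left out, the members called ranged from 2 to 4 for the 24-h rhythm, 1 to 3 for night against day, 0 to 1 for ZT19 against ZT07 and 2 to 3 for ZT15 against ZT03. They stayed at 2 for any difference among the times, at 1 for dusk against dawn and at 0 for the 12-h component and ZT23 against ZT11. Other pathway genes with a rhythm ranged from 5 to 7, and pairs that differed from 6 to 7.

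The labels do not say whether a replicate number links arrays of different times. Deviations of same-numbered arrays correlated at -0.0141 on average, against 0.00510 for other pairs. Of 24 arrays, 8 correlated best with an array of their own number, a count that was not tested. Averages over all pairs cannot exclude a link between some of the arrays. With the replicate block, 2 members had a 24-h rhythm, since Nmnat1 missed the threshold (adjusted p = 0.0696), 2 differed between night and day, and 0 between ZT19 and ZT07 (Nmnat1, adjusted p = 0.0799). Of the other genes named, Sirt2 and Mthfd1 lost their night calls (adjusted p = 0.0608 and 0.0531). With centred values, signal over background is unknown, and the number of arrays limits the precision.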

Other observations

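Of 12 measured NADP kinases and NADPH sources, 2 had a 24-h rhythm, Nadk, which is 1 of the 8 members, and Idh1, where 7.61% of all genes were called. Idh1, the cytosolic isocitrate dehydrogenase that makes NADPH, changed 1.34-fold with a peak at ZT 12.6 (SE 0.528 h, adjusted p = 0.000105 in limma's test), and its call held without any single array. Nadk2, the mitochondrial NAD kinase, had an amplitude of 0.060 ± 0.038 (SE) and was not called (adjusted p = 0.657). Its difference from Nadk was not tested.

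Limma called a rhythm in 0 of 10 measured genes of the mitochondrial NAD carrier and the NADH shuttles (2 at an unadjusted p below 0.05), with a median amplitude of 0.060. Over all genes, 7.61% were called and 19.5% had an unadjusted p below 0.05. Slc25a51, the carrier that brings NAD into mitochondria, had a night minus day difference of 0.067 with a 95% confidence interval from -0.021 to 0.16.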
